A study of Mus musculus with 74 samples.

Results

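T cell activation genes that still rose in cells carrying HDAC7 DP, a form of histone deacetylase 7, were measured on 2-colour arrays of DO11.10, a mouse T cell hybridoma line. The test group held 8 arrays of DO11.10 cells transduced with an MSCV retrovirus encoding HDAC7 DP and treated with PMA and ionomycin for 2.5 h. The control group held 12 arrays of DO11.10 cells transduced with empty MSCV virus and left unstimulated, from the larger of 2 empty-virus sets. These 20 arrays were chosen from 74 by their labels alone. A further 8 arrays of cells with the empty virus, given the same stimulus for 2.5 h, served to read how much of the normal response remained. On every array the second RNA came from DO11.10 cells with neither virus nor stimulus, and each value is a log2 ratio to those cells. Its direction, sample over untreated cells, is not stated and is taken as likely, because Hdac7 lay between 3.41 and 4.81 on 4 of the 8 arrays of the virus that encodes it and arrays of opposite dye in the test group ran the same way. The other 4 of these arrays, with Hdac7 at the control level, do not bear on the direction. The meaning of DP is not given in the sources used here, and arrays of unstimulated HDAC7 DP cells were not analysed here, so within the first comparison an effect of the stimulus and an effect of the construct cannot be told apart. Whether the arrays of a group came from separate cultures is not given either, so p-values measure the spread between these arrays, which may be technical.

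PMA activates protein kinase C and through it the MAP kinase and NF-kB pathways, and ionomycin raises intracellular calcium, which activates calcineurin and NFAT. Given together they bypass the T cell receptor and switch on immediate early transcription factors, then cytokines and other effector genes. HDAC7 is a class IIa histone deacetylase of thymocytes that sits on MEF2 factors at DNA and keeps genes they control silent, such as the orphan nuclear receptor gene Nr4a1 (Nur77). Signals from the T cell receptor normally lead to its phosphorylation and export from the nucleus, which lifts that repression.

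The targeted gene was examined first. Hdac7 gave log2 ratios from -0.01 to 0.46 on the 4 HDAC7 DP arrays of slide series 14 (mean 0.17, SD 0.21) and from 3.41 to 4.81 on the 4 of slide series 15 (mean 4.00, SD 0.59). The 12 unstimulated arrays lay between -0.15 and 0.51. So the 4 HDAC7 DP arrays of series 15 stood above every control array, while those of series 14 overlapped the controls. A series is the first number of an array's slide in its title, and both groups are spread over both series. Over all 8 arrays Hdac7 was higher by 1.96 on the log2 scale (SE 0.56, adjusted p = 0.022, limma), and with series 14 alone, with slides 19 and 20 alone, or without replicate 4, 6, 7 or 8 of the test group the call ended. By Hdac7 the 4 arrays of series 14 are therefore not told from the controls, and their construct is taken from the label. For 15 named genes given below, their differences to stimulated empty-virus cells ran the same way as in series 15. What the Hdac7 values of series 14 reflect was not tested. Below, the count of each gene list is also given for series 15 alone.

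The arrays of the test group correlated with each other at r between 0.456 and 0.706 over all probes where the dye was the same, and between 0.084 and 0.602 where the dyes were opposite. In the control group, 9 of 30 same-dye pairs had r under -0.3, and all 9 included replicate 3 or replicate 9, whose direction is therefore not settled. Their sign as given was kept, and with these arrays left out 2345 probes were called in place of 2172. With their sign turned 2487 were called, and of 77 named genes Ppp3ca and Wdr43 lost their call. Opposite-dye pairs of the control group had a median r of -0.401, and turning all its Cy3 arrays gave 2757 calls and kept 71 of the 77. Of markers of other cell types, 0 of 8 B cell, 0 of 7 myeloid, 0 of 9 fibroblast and 0 of 3 erythroid genes were called in the first comparison. A ratio gives no level in a single RNA, so the presence of T cell markers could not be checked, but of 8 measured Cd4 was higher by 0.37 and Cd247, the zeta chain of the receptor, fell by 0.57.

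Stimulated HDAC7 DP cells differed widely from unstimulated cells with the empty virus. Of 16463 probes, 1025 rose (6.23%) and 1147 fell (6.97%) at an adjusted p under 0.05 in limma's moderated test with dye orientation as a term. By at least 2-fold 192 rose (1.17%) and 145 fell. Within series 14 alone 986 probes were called, of which 442 rose (2.68% of all). Within series 15 alone 1271 were called, of which 597 rose (3.63%). Counts within gene lists below are to be read beside these shares. Here and below, a gene rose or fell where it was called in this comparison, and each value is a difference of log2 ratios unless a ratio is named.

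Most probes of the normal response still rose in HDAC7 DP cells. In stimulated cells with the empty virus, 187 probes (1.14% of all) were at least 2-fold above untreated cells, and none of those 8 arrays enters the comparison of HDAC7 DP with unstimulated cells. Of these 187, 147 (78.61%) rose in HDAC7 DP cells, against 6.23% of all probes, 113 of them by at least 2-fold. Another 36 were not called and 4 fell. Their median difference between HDAC7 DP and unstimulated empty-virus cells was 1.23, beside -0.01 for all probes. In stimulated empty-virus cells their median ratio to untreated cells was 1.46. That ratio has another baseline, and the 187 were chosen for high values of it. These medians therefore do not measure how much of the response remained. Of the 187, 137 rose with series 15 alone, 111 with series 14 alone, 149 without control replicates 3 and 9, and 148 with the sign of those turned. The direct comparison of both stimulated groups, which shares the HDAC7 DP arrays with the first, called 185 probes lower with HDAC7 DP (1.12%) and 86 higher (0.522%). Within series 15 alone it called 27 probes. Counts of list members lower or higher than in stimulated empty-virus cells are to be read beside 1.12% and 0.522%.

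**Figure D1:**
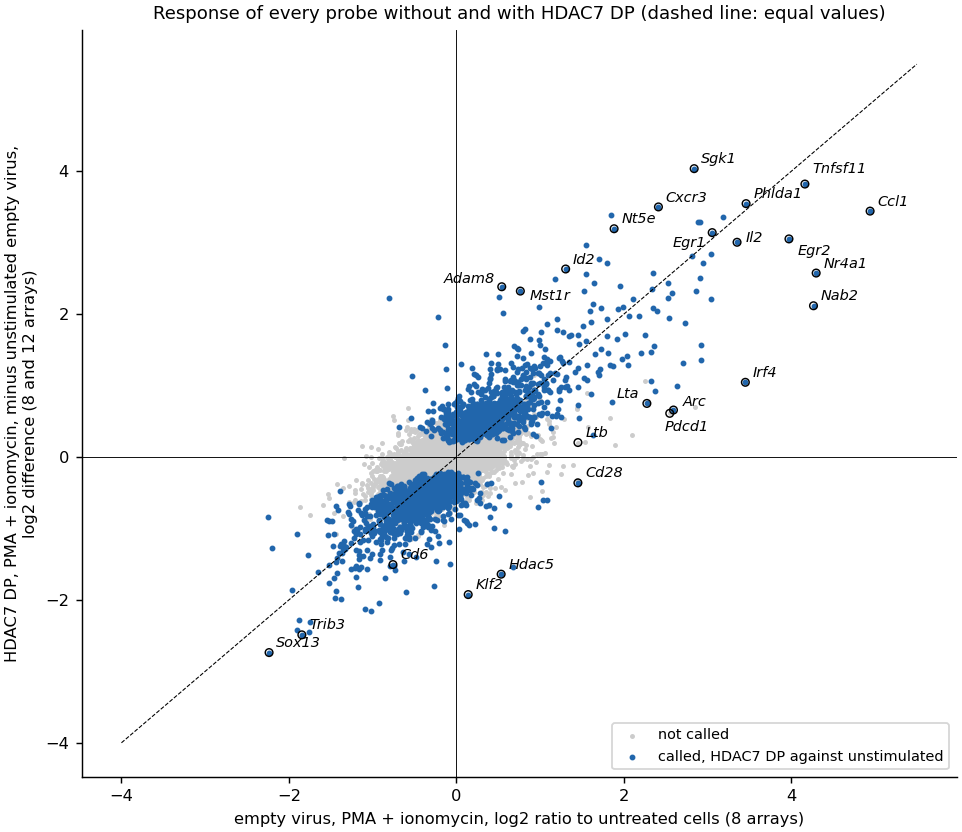
Each point is one of 16463 probes, with the log2 ratio of stimulated empty-virus cells to untreated cells (8 arrays) on the x axis and the log2 difference between stimulated HDAC7 DP cells (8 arrays) and unstimulated empty-virus cells (12 arrays) on the y axis. Blue points were called on the y axis, and circled genes are named in the text. Phlda1 and Il2 lie near the dashed line of equal values, Nr4a1, Nab2, Irf4 and Arc lie well below it, and Sgk1, Adam8, Mst1r and Nt5e lie above it.

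The 12 genes with the largest rises were Sgk1, Tnfsf11, Phlda1, Cxcr3, Ccl1, Cyp11a1, Rrad, Slc30a1, Traf1, Nt5e, Egr1 and Egr2. For all 12, every HDAC7 DP array lay above every unstimulated array, which held for 195 of 16463 probes in all. The 12 were chosen by their rise on these same arrays, so this only describes them. Sgk1, a serum- and glucocorticoid-regulated kinase, had ratios of 2.94, 3.75 and 4.56 (lowest, median and highest) on HDAC7 DP arrays and of -1.13, -0.28 and 0.14 on unstimulated arrays. The difference was 4.04 (SE 0.17, 16.4-fold, adjusted p = 1.08e-12, limma). Phlda1, a pleckstrin homology domain gene induced by receptor signals in T cells, had the narrowest spread of the 12. Its ratios ran from 2.96 to 3.70 on HDAC7 DP arrays and from 2.84 to 4.05 on stimulated empty-virus arrays, so the stimulated groups overlapped almost fully. Rrad encodes a small GTP-binding protein that restrains calcium channels, and Slc30a1 encodes a zinc exporter. They rose by 3.36 (SE 0.41) and 3.29 (SE 0.31). Cyp11a1, the side-chain cleavage enzyme that begins steroid synthesis, rose by 3.39 (SE 0.22).

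Immediate early genes are transcribed within minutes of a signal without new protein synthesis, and most of those measured rose. Many encode transcription factors, but the list also holds others, such as Arc. Of 31, 19 rose and 0 fell, with a median of 0.65 beside -0.01 for all probes. With series 15 alone 17 rose, and with series 14 alone or with each set of slides averaged 12 rose. Egr1, a zinc finger factor driven by MAP kinase, had ratios of 2.05, 3.51 and 4.53 on HDAC7 DP arrays and of -0.07, 0.23 and 0.81 on unstimulated arrays. It rose by 3.14 (SE 0.28, adjusted p = 1.12e-07, limma). Egr2, its relative in negative regulation of T cells, had ratios of 1.82, 3.00 and 4.52 against at most 0.34 on any unstimulated array. It rose by 3.05 (SE 0.28, adjusted p = 1.84e-07). The AP-1 subunit gene Fosl1 rose by 2.33 (SE 0.28). Of the other members that rose, Junb at 1.95, Crem at 1.89 and Fosl2 at 1.29 are named after their values were seen, and Fos itself rose by 0.59. Members not called included Jun at 0.15, Egr3 at -0.11, Nr4a2 at 0.10 and Nr4a3 at 0.47. Their differences to stimulated empty-virus cells were not called either. Ratios there reached at most 0.79 for Jun and 0.47 for Nr4a2, but ran from -1.405 to 1.888 for Egr3 and from 0.251 to 1.764 for Nr4a3. Nr4a3 was higher than in unstimulated cells within series 15 alone, by 0.995 (adjusted p = 0.0261, limma), and stood at -0.06 within series 14 alone (adjusted p = 0.948). Against stimulated empty-virus cells 5 of the 31 were lower and 0 higher. These were Nr4a1 and Arc, which rose, and Nfil3 at -1.19 (adjusted p = 0.000775), Bhlhe40 at -1.21 (adjusted p = 0.000775) and Atf3 at -0.90 (adjusted p = 0.00646), which were not called against unstimulated cells at -0.48, 0.30 and -0.06.

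Nr4a1, the best known HDAC7 target in thymocytes, rose but was lower than in stimulated empty-virus cells. The 8 HDAC7 DP arrays gave ratios of 1.96, 2.69, 0.70 and 0.62 on slides 17, 18, 19 and 20 of series 14, and of 3.24, 3.30, 1.28 and 1.30 on the same slides of series 15. Unstimulated arrays lay between -1.44 and -0.11, and stimulated empty-virus arrays between 3.09 and 5.52. All HDAC7 DP arrays were thus above every unstimulated array, and 6 of 8 were below every stimulated empty-virus array. Nr4a1 was higher than in unstimulated cells by 2.58 (SE 0.32, 5.96-fold, adjusted p = 8.9e-06, limma). Against stimulated empty-virus cells it was lower by 5.32-fold (log2 difference -2.41, SE 0.45, adjusted p = 0.00939, limma), and within series 15 alone the difference was -2.01 (adjusted p = 0.475). The 250 bases before its start, from RefSeq's GRCm38.p6 annotation, lie on the plus strand of chr15:101266596-101266845. They are shown because HDAC7 and MEF2 are known to act on this promoter. These 250 bases hold no match to the MEF2 motif searched. Bases farther from the start were not searched, so whether the promoter has a MEF2 site there is not answered. A match to the EGR motif GCGNGGGCG on either strand is in capitals.
Nr4a1: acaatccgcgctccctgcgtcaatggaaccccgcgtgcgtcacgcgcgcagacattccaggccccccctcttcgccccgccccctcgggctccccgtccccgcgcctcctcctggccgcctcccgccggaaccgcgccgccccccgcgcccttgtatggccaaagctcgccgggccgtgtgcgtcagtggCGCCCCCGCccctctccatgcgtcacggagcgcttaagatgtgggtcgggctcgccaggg

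Cytokine genes split between a few large rises and many that were not called. Of 14 measured, 5 rose and 0 fell, with a median of 0.14. Il2, the main T cell growth factor and a standard readout of PMA with ionomycin, had ratios of 4.10, 4.19, 2.02 and 0.62 on slides 17, 18, 19 and 20 of series 14 and of 4.21, 4.29, 2.08 and 2.45 in series 15. Unstimulated arrays lay between -0.21 and 0.22, below all of these, and stimulated empty-virus arrays spread from 0.60 to 5.40. Il2 rose by 3.01 (SE 0.38, 8.04-fold, adjusted p = 9.07e-06, limma), and its difference to stimulated empty-virus cells was -0.36 (SE 0.76, adjusted p = 0.903), too uncertain to show either a loss or its absence. That difference was -1.06 within series 14 alone and 0.34 within series 15 alone. Il3, a growth factor for blood cell precursors, rose by 2.30 (SE 0.46), Csf1, the macrophage growth factor, by 1.39 (SE 0.27), and the type 2 cytokine Il13 by 0.93 (SE 0.21). The calls of these last 3 ended within series 14 alone and where each set of slides was averaged, and those of Csf1 and Il13 within series 15 alone as well. Il4 rose by 0.86. Ifng at -0.04, Il10 at 0.00, Il17a at -0.14, Il21 at 0.01 and Lif at 0.08 were not called, and neither were their differences to stimulated empty-virus cells. Of the 14, 3 rose with series 15 alone and 2 with series 14 alone. The 250 bases before the Il2 start, on the minus strand of chr3:37125955-37126204 in RefSeq's GRCm38.p6, hold 2 matches to the NFAT core GGAAA on either strand and none to the AP-1 motif TGANTCA, and are shown as the promoter on which the calcium and protein kinase C arms of the stimulus meet.
Il2: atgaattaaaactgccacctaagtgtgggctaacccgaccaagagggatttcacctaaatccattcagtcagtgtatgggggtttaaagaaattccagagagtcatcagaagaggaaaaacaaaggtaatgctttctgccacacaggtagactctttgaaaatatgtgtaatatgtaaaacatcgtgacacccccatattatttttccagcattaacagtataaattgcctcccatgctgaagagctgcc

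Ligands of the TNF family, by which activated T cells signal to or kill other cells, rose in larger part. Of 13 measured, 8 rose and 0 fell, with a median of 0.60. For 5 of the 13 every HDAC7 DP array lay above every unstimulated array, beside 195 of all 16463 probes. The count of risers was 8 with series 15 alone and 4 with each set of slides averaged, where Tnfsf4 and Lta were among those lost. Tnfsf11 (RANKL), the osteoclast differentiation ligand, had ratios of 2.39, 3.63 and 4.91 against -1.32, -0.36 and 1.15 in unstimulated cells and rose by 3.82 (SE 0.29, 14.1-fold). Fasl, the death ligand that mediates activation-induced death of T cells, had ratios of 1.91, 2.78 and 4.31, all above the unstimulated maximum of 0.36. It rose by 2.84 (SE 0.26, adjusted p = 1.37e-07, limma), and its arrays overlapped those of stimulated empty-virus cells, at 2.15 to 4.11. Tnfsf4 (OX40 ligand) rose by 2.82 (SE 0.47). Tnf rose as well, by 2.33 (SE 0.20, adjusted p = 7.89e-08), from ratios of -1.40 to 0.64 up to 1.07 to 2.58. In the direct comparison Tnf was lower than in stimulated empty-virus cells by 0.81 (SE 0.18, adjusted p = 0.0285, limma). The lymphotoxin genes, neighbours of Tnf in function, gave a different picture. Lta rose by 0.75 (SE 0.11) with ratios of 0.36 to 1.13, beside 1.28 to 3.17 in stimulated empty-virus cells, and Ltb at 0.20 (adjusted p = 0.31) was not called. Both were lower than in stimulated empty-virus cells, by -1.59 (SE 0.28, adjusted p = 0.00536) and -1.59 (SE 0.25, adjusted p = 0.0024). Within series 15 alone these differences were -1.42 (adjusted p = 0.542) and -1.40 (adjusted p = 0.431).

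**Figure D2:**
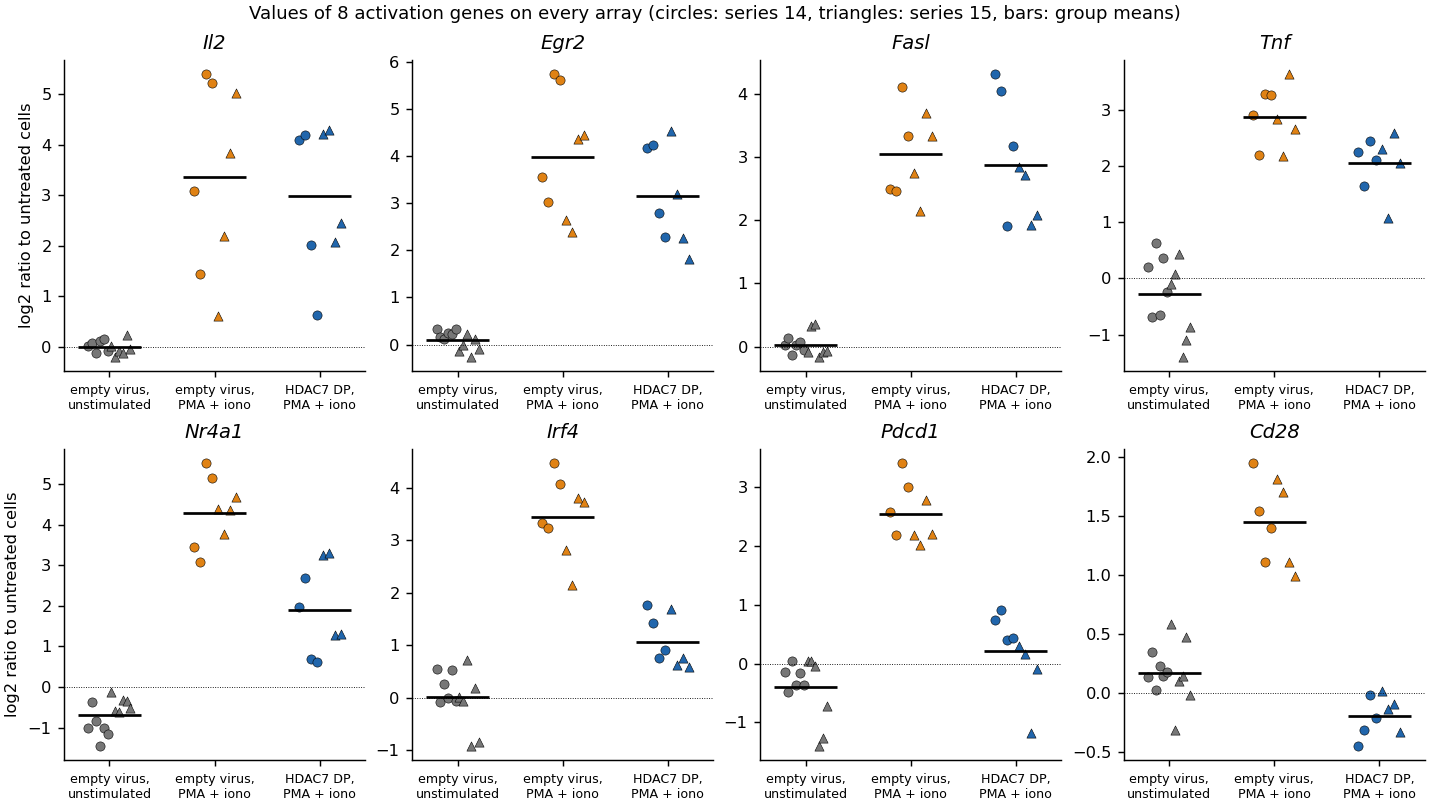
Log2 ratios to untreated cells of 8 activation genes on each array of the unstimulated empty-virus (12 arrays, grey), stimulated empty-virus (8, orange) and stimulated HDAC7 DP (8, blue) groups; circles are slide series 14, triangles series 15 and bars group means. In the upper row, stimulated groups overlap in Il2, Egr2, Fasl and Tnf. In the lower row, HDAC7 DP arrays of Nr4a1 lie between the other groups with some overlap upward, and those of Irf4, Pdcd1 and Cd28 lie below all stimulated empty-virus arrays.

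Chemokine genes and receptors were mostly not called. Of 19, 5 rose, 1 fell and 13 were not called, with a median of 0.04, and within series 15 alone 4 rose and 1 fell. Cxcr3, the receptor of interferon-induced chemokines on effector T cells, rose by 3.50 (SE 0.23, adjusted p = 1.62e-09, limma), with ratios of 2.44, 3.32 and 4.73 against at most 0.38 in unstimulated cells. Ccl1, a chemokine made by activated T cells, rose by 3.44 (SE 0.51) but ranged from 1.05 to 6.16 among HDAC7 DP arrays, and its call ended where each set of slides was averaged. Ccl5 rose by 1.01 (SE 0.16). Cxcr4, the receptor that holds lymphocytes and precursors in marrow and thymic cortex, fell by 1.86 (SE 0.25, adjusted p = 2.04e-05), and its ratios in stimulated empty-virus cells (-2.87 to -1.05) overlapped those with HDAC7 DP (-3.26 to -1.15).

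Surface receptors that mark activation gave 10 risers and 2 that fell among 27, with a median of 0.13. Counted within a series, 9 rose in series 15 and 6 in series 14. Against stimulated empty-virus cells 4 of the 27 were lower (Cd28, Pdcd1, Cd6 and Cd24a) and Nt5e was higher. Nt5e (CD73), the ecto-enzyme that makes adenosine, rose by 3.20 (SE 0.16, 9.17-fold, adjusted p = 3.64e-11, limma) on the probe listed first and by 2.43 on the other. Its ratios of 2.65, 3.22 and 4.22 all lay above the stimulated empty-virus range of 1.42 to 2.41, and it was higher than in those cells by 1.41 (SE 0.17, adjusted p = 0.000228) on the first probe but not called on the other (0.58, adjusted p = 0.526). Cd274 (PD-L1), the ligand of PD-1, rose by 2.44 (SE 0.29), and Havcr2 (TIM-3), an inhibitory receptor, by 1.79 (SE 0.30), though Havcr2 lost its call within series 14 alone and where each set of slides was averaged. The early marker Cd69 rose by 1.30 and the IL-2 receptor beta chain Il2rb by 1.15, named after their values were seen. Tnfrsf9 (4-1BB) was not called on its first probe (-0.01) and higher by 2.71 (SE 0.31, adjusted p = 2.59e-06) on its other. Cd6, an adhesion receptor of T cells, fell by 1.51 (SE 0.15) and was lower than in stimulated empty-virus cells too, by -1.11 (SE 0.15, adjusted p = 0.000564).

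Pdcd1 and Cd28 were lower in HDAC7 DP cells than in stimulated empty-virus cells. Pdcd1 (PD-1), the inhibitory receptor of activated T cells, had ratios of -1.17, 0.35 and 0.91 with HDAC7 DP, -1.40, -0.26 and 0.05 unstimulated, and 2.02, 2.39 and 3.42 in stimulated empty-virus cells. It was not called against unstimulated cells (0.61, SE 0.24, adjusted p = 0.103), though within series 14 alone it was higher by 0.86 (adjusted p = 0.00763) and within series 15 alone it stood at 0.36 (adjusted p = 0.698). It was 5.05-fold lower than in stimulated empty-virus cells (log2 difference -2.34, SE 0.27, adjusted p = 0.000118, limma). Every HDAC7 DP array lay below every stimulated empty-virus array. Cd28, the co-stimulatory receptor, named after its values were seen, had ratios of -0.45 to 0.02 with HDAC7 DP, against -0.31 to 0.58 unstimulated and 0.99 to 1.95 in stimulated empty-virus cells. It fell by 0.36 against unstimulated cells (SE 0.10, adjusted p = 0.0159), a call that ended in each series alone, and was lower than in stimulated empty-virus cells by -1.64 (SE 0.14, adjusted p = 7.11e-06). Within series 15 alone that last difference was -1.54 (adjusted p = 0.0493), and for Pdcd1 -2.50 (adjusted p = 0.056), and within series 14 alone they were -1.75 (adjusted p = 0.0124) and -2.18 (adjusted p = 0.0173).

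Of NF-kB subunits and their feedback genes, which follow protein kinase C, 9 of 15 rose, 0 fell and 6 were not called, with a median of 0.77. The count was 9 with series 15 alone and 5 with slides 19 and 20 alone. Traf1, an adaptor of TNF receptors and an NF-kB target, rose by 3.29 (SE 0.21). Rel, the c-Rel subunit that drives Il2, had ratios of 0.96, 1.71 and 2.89 against at most 0.13 in unstimulated cells and rose by 1.97 (SE 0.22, adjusted p = 2.41e-06, limma). The inhibitor gene Nfkbia rose by 1.71 (SE 0.11) from -0.27 to 0.67 up to 1.64 to 2.37, and Nfkb2 by 1.41 (SE 0.20). Against stimulated empty-virus cells 0 of the 15 were called.

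Genes of the calcineurin and NFAT machinery itself went both ways. Of 13, 2 rose and 3 fell, beside 6.23% and 6.97% of all probes. The median was -0.04, and within series 15 alone 1 rose and 1 fell. Nfat5, a relative of NFAT that answers osmotic stress, rose by 0.74 (SE 0.16), and Nfatc1, whose short isoform is induced by calcium signals, by 0.67 (SE 0.11) on its first probe and 0.27 (not called) on its other. Nfatc3, an NFAT of thymocytes, fell by 1.05 (SE 0.22), and Ppp3ca, a calcineurin catalytic subunit, by 0.75 (SE 0.18). The call of Nfatc1 ended within series 14 alone. Those of Nfat5 and Ppp3ca ended within each series alone, and that of Ppp3ca also where the sign of control replicates 3 and 9 was turned. Rcan1 at -0.24, the calcineurin feedback inhibitor, was not called and is named after its value was seen.

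Feedback genes of the MAP kinase and receptor pathways rose in part. Of 24, 8 rose and 2 fell, with a median of 0.22. The risers numbered 8 with series 15 alone and 4 with series 14 alone. The 2 that fell were Dusp10 at -0.65 and Dusp1 at -0.59, named after their values were seen. Against stimulated empty-virus cells 5 of the 24 were lower and 0 higher. The 5 were Dusp2 at -2.45, Nab2 at -1.92, Socs1 at -1.50, Dusp10 at -1.20 and Nab1 at -0.98. Spry1, an inhibitor of Ras signalling, rose by 2.11 (SE 0.23) and Dusp4, a nuclear MAP kinase phosphatase, by 1.88 (SE 0.25). Cish, a suppressor of cytokine signalling, rose by 1.57 (SE 0.32), not called within series 14 alone or where each set of slides was averaged. Nab2, the co-repressor that binds EGR proteins and is their target, rose by 2.12 (SE 0.18, adjusted p = 6.46e-08, limma), with ratios of 1.61, 2.34 and 3.14 against -0.12, 0.23 and 0.62. In stimulated empty-virus cells Nab2 ran from 3.48 to 5.36, above every HDAC7 DP array, and the HDAC7 DP cells were lower by -1.92 (SE 0.32, adjusted p = 0.00303, limma), or -1.84 within series 15 alone (adjusted p = 0.139). So Nab2 was reduced while Egr1 (0.35, SE 0.46, adjusted p = 0.835) and Egr2 (-0.81, SE 0.54, adjusted p = 0.622) were not called against stimulated empty-virus cells; whether those differences themselves differ was not tested.

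Apoptosis genes gave 5 risers and 4 that fell among 23, with a median of 0.01 that became -0.04 with the sign of control replicates 3 and 9 turned. Counted in series 15 alone, 4 rose and 3 fell. Phlda1 is described above, and Gadd45g, a growth-arrest gene that activates stress kinases, rose by 2.04 (SE 0.15) with ratios of 1.56 to 2.44. The survival gene Mcl1 rose by 1.05 (SE 0.25), a call that ended within each series alone. Gadd45b, an NF-kB target that limits stress kinase signalling, rose by 0.99 (SE 0.16) but was lower than in stimulated empty-virus cells by -1.12 (SE 0.23, adjusted p = 0.0181, limma). The 4 that fell were Gadd45a at -0.89, Bbc3 at -0.81, Bnip3l at -0.46 and Bnip3 at -0.45, named after their values were seen. Bbc3 was also lower than in stimulated empty-virus cells, by -0.45 (adjusted p = 0.047, limma). Bcl2l11 (Bim), the death gene of negative selection, was not called at 0.05, as named after its value was seen.

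Among 21 transcription factors of T cell lineages 3 rose and 7 fell, with a median of -0.09. The counts were 3 and 5 within series 15 alone, 3 and 2 within series 14 alone, and 2 and 2 with slides 19 and 20 alone. Against stimulated empty-virus cells 6 of them were lower and 1 higher. Id2, an inhibitor of E proteins, rose by 2.63 (SE 0.10, adjusted p = 1.92e-13, limma) and was higher than in stimulated empty-virus cells by 0.94 (SE 0.23, adjusted p = 0.0462). Bcl6, the repressor of follicular helper cells, rose by 2.50 (SE 0.29). Irf4, a factor whose level follows the strength of the receptor signal, had ratios of 0.59, 0.84 and 1.77 in HDAC7 DP cells, -0.92, 0.00 and 0.71 unstimulated, and 2.16, 3.52 and 4.48 in stimulated empty-virus cells. All 8 HDAC7 DP arrays lay below all 8 stimulated empty-virus arrays. Irf4 rose by 1.05 (SE 0.20, adjusted p = 0.000793), a call that ended with slides 19 and 20 alone, and was 5.21-fold lower than in stimulated empty-virus cells (log2 difference -2.38, SE 0.28, adjusted p = 0.000164, limma). Within series 15 alone that difference was -2.21 (adjusted p = 0.134). Klf2, a factor of quiescent and emigrating T cells, fell by 1.93 (SE 0.33), with a call that ended within series 14 alone.

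Among class IIa deacetylases, MEF2 factors and their kinases, 3 of 10 rose and 1 fell, with a median of 0.03, and within series 15 alone 2 rose and 1 fell. Hdac5, another class IIa deacetylase, fell by 1.64 (SE 0.16, adjusted p = 4.26e-07, limma), from ratios of -0.25 to 0.72 down to -2.41 to -0.51, with no overlap. It ran from -0.23 to 1.38 in stimulated empty-virus cells and was lower than there by -2.08 (SE 0.28, adjusted p = 0.00057). Within series 14 alone that difference was -2.15 (adjusted p = 0.0364, limma) and within series 15 alone -2.01 (adjusted p = 0.349). Its call ended where slides of one number were averaged. Hdac5 had a mean ratio of -0.07 on stimulated empty-virus slides 13 and 14 and of 1.14 on slides 15 and 16. The difference of Hdac5 to unstimulated cells was -1.50 within series 14 alone and -1.78 within series 15 alone. Camk2d, a calcium-dependent kinase, rose by 1.15 (SE 0.16) and Mef2d, the MEF2 factor bound by HDAC7 in thymocytes, by 0.69 (SE 0.11), a call that ended within series 15 alone. Arc, a synaptic immediate early gene that MEF2 and SRF drive in neurons, rose by 0.66 (SE 0.15) and was lower than in stimulated empty-virus cells by -1.90 (SE 0.29, adjusted p = 0.00156); its rise was not called within series 14 alone, with slides 19 and 20 alone or where each set of slides was averaged.

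T cell receptor signalling genes included 2 that rose and 4 that fell among 20, beside 6.23% and 6.97% of all probes. Their median of 0.01 became -0.06 with the sign of control replicates 3 and 9 turned. Within series 15 alone 1 rose and 2 fell. Ptpn22, a phosphatase that restrains proximal signalling, rose by 1.34 (SE 0.15). Vav1, the exchange factor of the receptor complex, fell by 0.90 (SE 0.22), Csk, the kinase that inhibits Lck, by 0.75 (SE 0.17), and the phosphatase Ptpn6 by 0.58 (SE 0.08). The calls of Vav1 and Csk ended within series 15 alone, and that of Vav1 within series 14 alone too. Ribosome biogenesis genes were mostly not called, with 3 risers among 17 (Polr1b at 0.83, Nop2 at 0.74 and Wdr43 at 0.61) and a median of 0.02, and 0 rose with series 15 alone. The call of Wdr43 ended in 13 of the 20 fits that left out 1 array. Among 34 cell cycle genes 1 rose and 8 fell, with a median of -0.31. By pair of slides, 14 fell with slides 17 and 18 alone (median -0.53) and 2 with slides 19 and 20 alone (median -0.10). With each set of slides averaged 2 fell and in each series alone 4 fell, and 12 of the 34 were called between the pairs of slides. Ccng2, an atypical cyclin high in resting cells, fell by 2.44 (SE 0.16), Rbl1 (p107) by 1.38 (SE 0.29), the thymidine kinase Tk1 by 1.02 (SE 0.29) and the spindle checkpoint kinase Bub1b by 0.93 (SE 0.16). The calls of Rbl1 and Tk1 ended within each series alone, and that of Tk1 also without replicate 1, 2 or 7 of the test group.

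Stress and sterol genes moved both ways, where 6.23% of all probes rose and 6.97% fell. Of 16 stress response genes 2 rose and 5 fell, with a median of -0.12, and within series 15 alone 1 rose and 5 fell. Trib3, a pseudokinase of the amino acid stress response, fell by 2.49 (SE 0.16, adjusted p = 8.67e-10, limma), Chac1, which degrades glutathione, by 1.11 (SE 0.21) and Ddit3 (CHOP) by 1.05 (SE 0.10). The chaperone Hspa8 rose by 1.03 (SE 0.24), a call that ended within each series alone. Of 12 cholesterol genes 4 rose and 4 fell, with a median of -0.26, and within series 15 alone 1 rose and 1 fell. Abcg1, the sterol exporter, fell by 2.42 (SE 0.16), while the synthesis enzymes Cyp51, Idi1 and Fdps rose by 0.94 (SE 0.20), 0.76 (SE 0.24) and 0.67 (SE 0.16). Within series 15 alone Cyp51 kept its call, and none of these 3 did within series 14 alone. That of Idi1 ended in 14 of the 20 fits that left out 1 array.

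**Figure D3:**
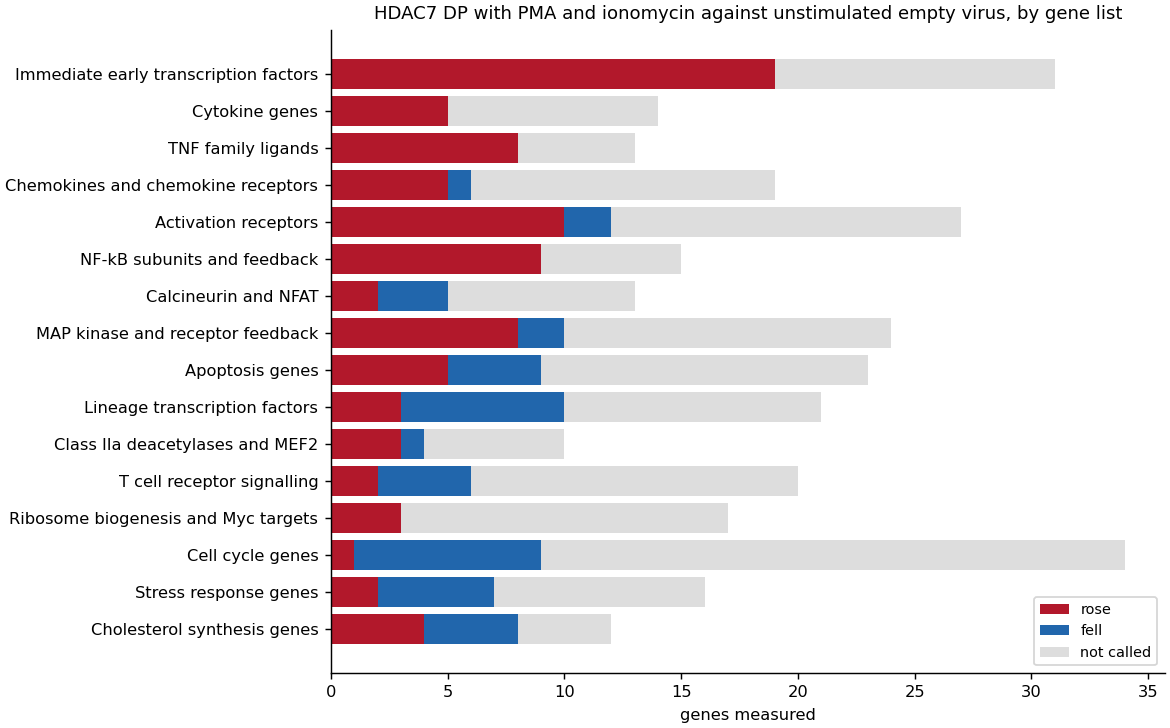
Number of measured genes in each of 16 lists that rose (red), fell (blue) or were not called (grey) in stimulated HDAC7 DP cells (8 arrays) against unstimulated empty-virus cells (12 arrays), at an adjusted p under 0.05 in limma. Over all probes 6.23% rose and 6.97% fell. The bars of immediate early genes (19 of 31, not all of them transcription factors), TNF family ligands (8 of 13) and NF-kB genes (9 of 15) are red over most of their length.

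Adam8, Mst1r, Nt5e and Id2 were the named risers called higher than in stimulated empty-virus cells. Adam8, a metalloprotease of leukocytes, had ratios of 1.35, 1.81 and 2.89 in HDAC7 DP cells, -0.91, -0.39 and 0.14 unstimulated and -0.23, 0.63 and 1.30 in stimulated empty-virus cells. It rose by 2.38 (SE 0.16) and was higher than in stimulated empty-virus cells by 1.47 (SE 0.26, adjusted p = 0.00509, limma), with no overlap of arrays. Mst1r (RON), a receptor tyrosine kinase, rose by 2.32 (SE 0.27) and was higher by 1.68 (SE 0.40, adjusted p = 0.04), its arrays at 1.31 to 3.83 beside 0.04 to 1.71. Cyp11a1 at 1.49 (adjusted p = 0.124) and Cxcr3 at 1.16 (adjusted p = 0.327) were not called in that comparison. Neither was Car5b, a mitochondrial carbonic anhydrase, at 1.38 (adjusted p = 0.535), where 1 stimulated empty-virus array of series 14 stood at -5.76 and series 15 alone gave 0.13.

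Of the 185 probes lower than in stimulated empty-virus cells, 18 rose against unstimulated cells, 74 were not called and 93 fell. Both comparisons use the same HDAC7 DP arrays, so these counts only describe the probes. The 18 include Nr4a1, Irf4, Nab2, Tnf, Lta, Arc, Gadd45b and Socs1. The last, an inhibitor of cytokine receptor kinases named after its values were seen, rose by 1.36 and was lower than in stimulated empty-virus cells by -1.50 (adjusted p = 8.51e-05). Within series 14 alone, 192 probes differed between HDAC7 DP and empty virus, both stimulated, and within series 15 alone 27. Of the 15 genes named by the rule and called in both comparisons, which leaves out Cd28, 4 kept their call in series 14 alone (Nt5e, Cd6, Irf4 and Hdac5) and none in series 15 alone, and all 15 kept their direction in both. Where slides of one number were averaged, 101 probes and 3 of the 15 were called, and without the dye term Tnf and Id2 were not.

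The genes that fell furthest were Sox13, Trib3, Ccng2, Abcg1, Degs2, Trgv2, Csprs and Izumo1r. Sox13, a transcription factor of gamma-delta T cells, had ratios of -3.83, -3.24 and -2.75 with HDAC7 DP against -1.57, -0.74 and 1.54 unstimulated and -2.57, -2.25 and -1.65 in stimulated empty-virus cells. It fell by 2.74 (SE 0.26) and was lower than in stimulated empty-virus cells by -0.99 (SE 0.16, adjusted p = 0.00297, limma), below all of those arrays. Degs2, a sphingolipid desaturase and hydroxylase, fell by 2.31 (SE 0.09, adjusted p = 2.09e-13) with ratios of -2.55 to -1.88 against -0.16 to 0.30. Trgv2, a gamma chain variable segment, spread from -2.90 to 1.99 in unstimulated cells, and its fall of 2.29 (SE 0.47) ended as a call within series 14 alone and with slides 19 and 20 alone. Izumo1r, the folate receptor 4 gene of regulatory T cells, fell by 2.05 (SE 0.30) on its first probe and was not called on its other (-0.29).

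The response was not even among the HDAC7 DP arrays. Slides 17 and 18 of both series (4 arrays) and slides 19 and 20 (4 arrays) differed at 908 probes (5.52% of all), in a comparison added after the data were seen. Of the 192 probes that rose by at least 2-fold, 78 were higher on slides 17 and 18, 3 were lower and 111 were not called. The median of the 192 was 1.75 against unstimulated cells with slides 17 and 18 and 1.20 with slides 19 and 20. With either pair alone 186 and 167 of them rose, and 165 rose with both. The mean ratio of Il3 was 3.80 for slides 17 and 18 and 0.73 for slides 19 and 20. In the same order Tnfsf4 had means of 4.35 and 1.12, Ccl1 of 5.07 and 1.82, and Il2 of 4.20 and 1.79. Phlda1 (3.39 and 3.10, adjusted p = 0.403), Gadd45g (1.90 and 2.15, adjusted p = 0.596) and Tnf (1.81 and 2.30, adjusted p = 0.134) were not called between the pairs. Stimulated empty-virus cells also held unlike pairs, with Il2 at 1.83 on slides 13 and 14 and 4.87 on slides 15 and 16, and Il3 at 0.86 and 4.29. Whether a pair of slide numbers marks a culture, an RNA or a labelling is not given in the sources used here. Nr4a1 lay at 2.80 and 0.97 with HDAC7 DP and at 3.67 and 4.92 in stimulated empty-virus cells, so that both HDAC7 DP pairs were below both others.

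**Figure D4:**
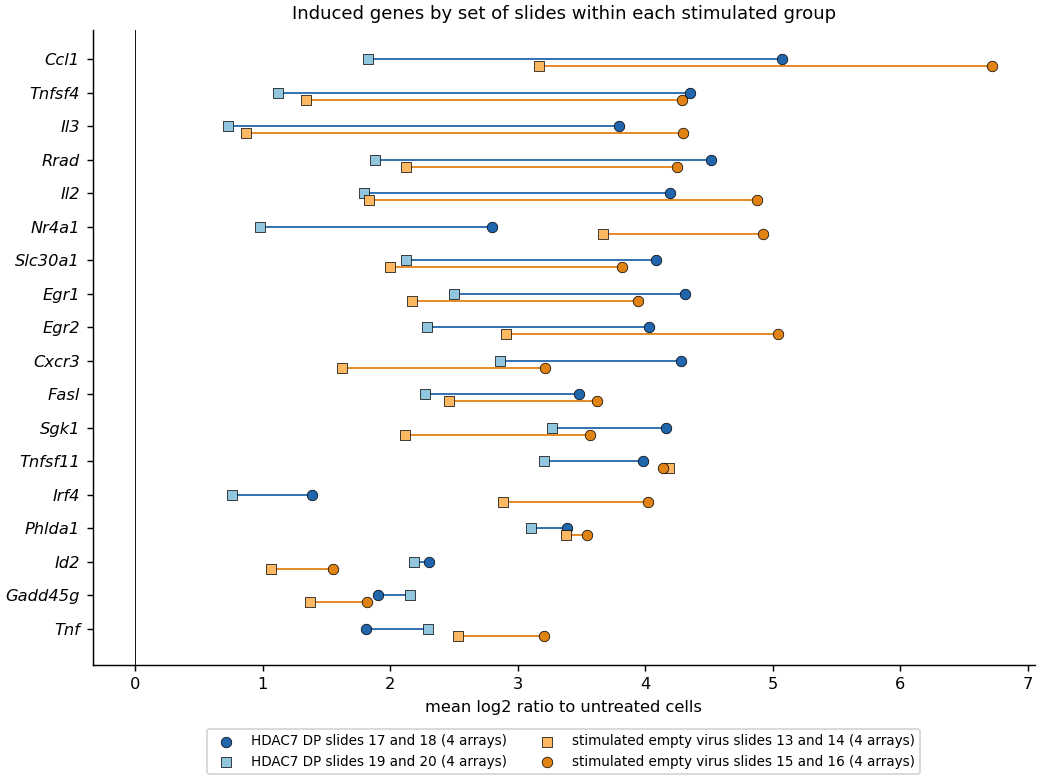
Mean log2 ratio to untreated cells of 18 named genes on each pair of slides (4 arrays a mean, no error drawn) of stimulated HDAC7 DP cells (blue) and stimulated empty-virus cells (orange). Ccl1, Tnfsf4, Il3 and Il2 differ widely between pairs in both groups, while Phlda1, Id2, Gadd45g and Tnf differ little, and Nr4a1 and Irf4 with HDAC7 DP lie below both empty-virus pairs.

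Promoters were compared for the genes that rose by at least 2-fold. Of 177 such genes 143 had a promoter in the RefSeq table, and the 250 bases before the start were searched on both strands. The AP-1 motif TGANTCA was found in 18 of them (12.59%), against 6.87% of all 27025 promoters of the table at the same length. Those promoters were not limited to genes measured on these arrays, so the sets are unlike. The serum response element was found in 1 of the 143 (0.7%), against 1.4%. The EGR motif GCGNGGGCG was found in 8.39% against 4.65%, the NF-kB motif in 5.59% against 3.75%, the cyclic AMP response element TGACGTCA in 2.8% against 1.62%, the NFAT core GGAAA in 51.75% against 55.58% and the MEF2 motif in none against 3.01%. For 41 genes at least 2-fold lower than in stimulated empty-virus cells, the EGR motif was found in 9 (21.95%), the AP-1 motif in none and the MEF2 motif in 1 (2.44%). AP-1 matches of the risers with the largest changes among those that hold one are shown in 27 bases of GRCm38.p6 with the motif in capitals, chosen after their values were seen. Slc37a2, a sugar-phosphate exchanger that rose by 2.97, has its match on the minus strand of chr9:37255829-37255855. Srxn1, the sulfiredoxin that repairs oxidised peroxiredoxins and rose by 2.35, has one on the plus strand of chr2:152105469-152105495 and another at chr2:152105412-152105438. Ddc, the aromatic amino acid decarboxylase that rose by 2.23, has its match on the minus strand of chr11:11898257-11898283, and Fer1l4, a ferlin family gene that rose by 2.09, on the minus strand of chr2:156053002-156053028. Plaur, the urokinase receptor that rose by 2.09, has its match on the plus strand of chr7:24462404-24462430, and Havcr2 has its own on the plus strand of chr11:46454721-46454747.
Slc37a2: ccgcagatcaTGAGTCAgcgcggtggt
Srxn1, nearer match: aaattcacccTGAGTCAgcggccgggc
Srxn1, farther match: tcggagggccTGAGTCAccacgctgtg
Ddc: gggcttgttgTGAATCAagctcactgg
Fer1l4: gagtccagtgTGAGTCAcgggcaacac
Plaur: cccctggagcTGACTCActctttagca
Havcr2: tcctttttgtTGATTCAtgtaataaac
The matches lie 107, 45, 102, 129, 25, 69 and 200 bases before the start, in the order shown. A match describes the letters only, and binding was not measured on these arrays. Sites outside the 250 bases were not searched, so a motif not found there may lie elsewhere.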

How the data were processed

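Values were the authors' deposited log2 ratios of the 2 channels of each array, 16463 probes with 0 missing values; no source used here states the log base, scanner, background correction, normalization or ratio direction, so log2 is assumed and the direction was read from the data. Array medians, between -0.021 and 0.023, were set to 0. Spot intensities were not used here, so the number of arrays limits precision. Of the probes, 14551 had 1 gene symbol, 6 several and 1906 none. Tests used limma 3.58.1 (statmod 1.5.0, R 4.3.3), lmFit and eBayes per probe with a dye term, two-sided, with Benjamini-Hochberg adjustment over all probes, called at an adjusted p under 0.05; only the groups compared entered a fit. The code was tested on simulated data. Named are Hdac7, the 12 highest and 8 lowest called genes, up to 4 called members of each of 16 lists, and the 6 risers highest and 6 lowest against stimulated empty virus; of several probes for 1 gene the first in file order was taken. The comparison, lists and markers were chosen with earlier results of these data known. Alternatives covered dye, slide, centring, scaling, direction and control arrays.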

Additional observations from a re-analysis of the deposited data

Results flagged for a closer look

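Of 77 named genes, 1 had an array of the HDAC7 DP group far from its 7 companions. Abcg1 gave a ratio of -3.123 on slide 18 of series 14, while the other arrays lay between -2.338 and -1.677. The gap was 0.543 of the whole range, above Dixon's critical value of 0.526 for 8 arrays. Chance flags about 1 in 20 such groups. Abcg1 kept its call when any single array was left out.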

How the results depend on the processing

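Among the 77 named genes, and the 15 of them also called between both stimulated groups, no called difference changed direction under an alternative run. Uncalled differences could, as that of Il2 between both stimulated groups did, from -1.06 with series 14 alone to 0.34 with series 15 alone. Of 77 named genes, 47 kept their call under all 19 alternatives that change the processing or the set of arrays, and 73 under all 20 fits without 1 array. The 2172 calls of HDAC7 DP against unstimulated cells became 986 with series 14 alone, 1271 with series 15 alone, 1221 with each set of slides averaged and 1232 with slides 19 and 20 alone, where fewer arrays or values enter. Leaving out 1 array gave 1820 to 2279. The 271 calls between both stimulated groups became 27 with series 15 alone and 101 with slides of one number averaged, and the 2650 of stimulated empty virus against untreated cells 64 and 116 with series 14 and 15 alone. No paired analysis was possible because the labels carry no replicate numbers that tie arrays of different groups together. Without intensities, signal over background could not be weighed.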
